A study of Mus musculus with 68 samples.

Results

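Mouse mammary tumours that carried much skeletal muscle RNA were compared with tumours that carried little. The tumours were chosen by the measured level of Myh4, the deposited value of 1 of its probe sets. Myh4 is the myosin heavy chain of the fastest skeletal muscle fibres. Only the 56 of 68 arrays with a mean below 8 over the 3 control probe sets for 18S ribosomal RNA were ranked, because that mean was at most 6.84 on those arrays and at least 8.97 on the other 12. The 18 arrays with the highest Myh4 are called muscle-rich here and the 18 with the lowest muscle-poor, so that 36 arrays from 36 different animals were compared and 20 arrays lay between them.

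All tumours arose spontaneously in mice with the MMTV-PyMT transgene, in which a promoter active in mammary epithelium drives the middle T oncogene of polyoma virus, on a ((NZB x PyMT) x FVB) backcross. The muscle-rich and the muscle-poor tumours therefore share tissue, transgene and cross, and the labels give no treatment, time or age. They were divided by a value measured on the same RNA, so p-values below describe association with Myh4 and not the effect of an intervention. The muscle-rich arrays comprised 15 with an animal number below 4000 and no suffix R, 1 with a number above 4000 and no suffix, and 2 with the suffix, a mark that no source used here explains. The muscle-poor arrays comprised 8, 6 and 4 of these kinds. Nothing in the labels says how the tumours were dissected or which mammary gland they came from.

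Skeletal muscle fibres are long multinucleate cells whose contraction is driven by myosin motors sliding along actin filaments, triggered by calcium that the sarcoplasmic reticulum releases through the ryanodine receptor and takes back through the SERCA pump. Fast fibres refill their energy from creatine phosphate and glycogen, while slow fibres depend more on mitochondria and on slow isoforms of myosin and troponin. Muscle is no component of the mammary gland, but it lies beneath the mammary fat pads and, in the mouse, as a thin sheet under the skin over them. In bulk RNA, fewer cells of a type and less RNA per cell cannot be told apart.

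Promoter sequences of genes whose levels separated these tumours are printed to show the motif letters found at the starts of the ranking gene and of 3 other genes. They come from RefSeq (GRCm38.p6), run from 250 bases before the annotated start to 50 bases after it, and are written 5′ to 3′ on the strand of the gene. Capitals mark the palindromic E-box CAGCTG, the type of motif that myogenic factors of the MyoD family bind, in the windows of Myh4 (chr11:67237562-67237861, plus strand), Ckm (chr7:19410844-19411143, plus strand) and Atp2a1 (chr7:126463024-126463323, minus strand). In the window of Synpo2 (chr3:123236100-123236399, minus strand) they mark a match to CTANNNNTAG, a loose form of the site that MEF2 factors bind. Any base was allowed at N. Counted from the annotated start, the E-box began at position -67 in Myh4, -249 in Ckm and -55 in Atp2a1, and the MEF2-type match at -236 in Synpo2. The window of Synpo2 held no E-box, and the other 3 windows held no MEF2-type match.
Myh4: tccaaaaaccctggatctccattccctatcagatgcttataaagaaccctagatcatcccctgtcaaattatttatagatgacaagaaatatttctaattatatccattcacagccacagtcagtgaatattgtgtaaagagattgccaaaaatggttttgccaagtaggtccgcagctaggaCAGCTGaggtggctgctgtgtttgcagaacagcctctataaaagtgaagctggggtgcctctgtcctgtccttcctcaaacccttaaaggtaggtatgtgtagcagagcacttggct
Ckm: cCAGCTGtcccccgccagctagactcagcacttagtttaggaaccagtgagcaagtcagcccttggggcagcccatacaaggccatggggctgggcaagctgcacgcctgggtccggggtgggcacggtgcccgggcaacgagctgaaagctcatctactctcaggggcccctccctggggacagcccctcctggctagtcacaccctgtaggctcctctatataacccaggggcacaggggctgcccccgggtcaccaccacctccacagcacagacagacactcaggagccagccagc
Atp2a1: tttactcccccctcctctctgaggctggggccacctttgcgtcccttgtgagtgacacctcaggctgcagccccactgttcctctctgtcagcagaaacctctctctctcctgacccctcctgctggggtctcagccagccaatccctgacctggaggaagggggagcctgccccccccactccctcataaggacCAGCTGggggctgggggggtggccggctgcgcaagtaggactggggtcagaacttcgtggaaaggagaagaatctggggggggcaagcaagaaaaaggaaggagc
Synpo2: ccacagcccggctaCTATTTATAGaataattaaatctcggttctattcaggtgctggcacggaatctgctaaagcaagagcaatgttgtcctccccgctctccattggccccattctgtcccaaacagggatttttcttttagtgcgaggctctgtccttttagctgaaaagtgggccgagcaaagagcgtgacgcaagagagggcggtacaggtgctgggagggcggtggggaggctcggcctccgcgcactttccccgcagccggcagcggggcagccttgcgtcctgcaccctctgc

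Both motifs read the same on both strands, so a search of 1 strand covers both, and no E-box shares letters with a MEF2-type match in these 4 windows. Of the 116 windows found for 89 tested genes of the muscle lists described below, 44.8% held the E-box, against 15.4% of the 12787 windows of tested genes outside those lists and 16.3% of all 32851 windows. The MEF2-type match stood in 9.48% of the muscle windows, against 3.08% of the windows outside the lists and 3.69% of all windows. The E-box share was highest among muscle energy genes, at 60.7% of 28 windows, while 2 of the 12 windows of the white fat list held it. A match is a description of letters in this window and no evidence of binding.

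Myh4 chose the groups, so its values are a description. On the log2 scale it was 10.16 at its lowest, 11.13 at its median and 12.54 at its highest in muscle-rich tumours, against 3.02, 4.04 and 7.90 in muscle-poor tumours. The means differed by 6.07. The ranking cut through a continuous range at the upper border, where the lowest muscle-rich value was 10.16 and the highest value between the groups 10.15. At the lower border the highest muscle-poor value was 7.90 and the next tumour had 8.04. The muscle-poor tumours themselves fell into 10 arrays at or below 4.31 and 8 arrays at or above 6.38, with no value in the 2.07 log2 units between.

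The label was checked against the other defining markers. Tnnc2, fast troponin C, averaged 11.61 ± 0.63 in muscle-rich and 6.04 ± 1.81 in muscle-poor tumours (SD, n = 18 each). Acta1, skeletal alpha-actin, averaged 12.41 ± 0.49 in muscle-rich and 7.68 ± 1.87 in muscle-poor tumours. For Tnnc2 and Acta1, which the ranking did not use, each muscle-rich tumour lay above each muscle-poor tumour. For Myh4 the ranking itself fixed that separation. The muscle-poor name is relative: 8 of those tumours still had Myh4 at 6.38 or more.

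**Figure D1:**
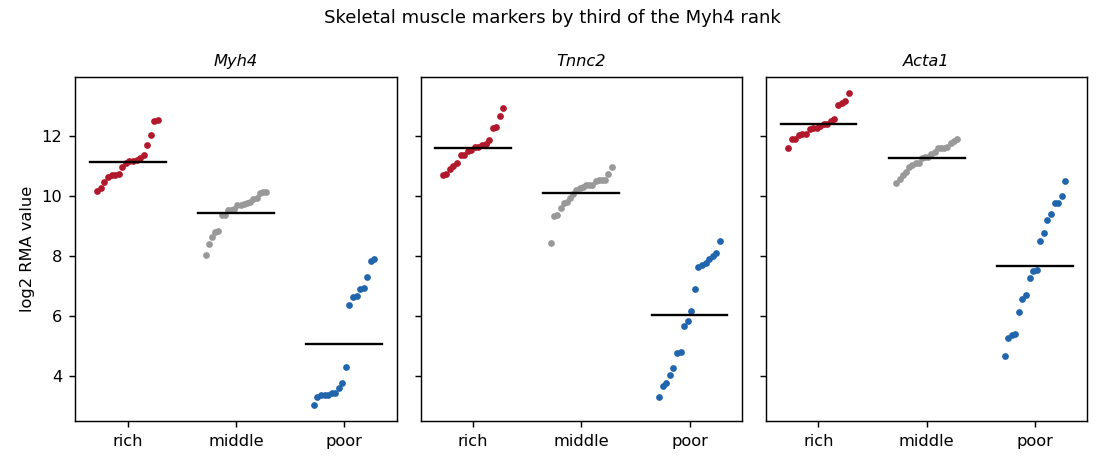
Deposited log2 values (vertical axis) of the skeletal muscle markers Myh4, Tnnc2 and Acta1 in 18 muscle-rich, 20 middle and 18 muscle-poor tumours; each point is 1 tumour, ordered by value within its group, and the line is the group mean. Myh4 ranked the tumours, and its muscle-poor values split into 10 at or below 4.31 and 8 at or above 6.38.

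Of 160 genes in 5 lists of skeletal muscle genes, 152 were on the array and 116 passed a filter on dim probe sets, which required the 95th percentile over the 56 arrays to exceed the median of all values, 5.42. A gene high only in muscle-rich tumours can pass that filter through them, so the following counts describe the groups and support nothing. Of the 116, 68 had a mean difference above 1 on the log2 scale, 41 lay between 0 and 1, and 7 at or below 0. In 57 every muscle-rich tumour lay above the highest muscle-poor one. How many of the other tested genes separated in this way was not counted. The median difference over all 12446 tested genes outside these lists was -0.03.

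The largest differences outside the contractile apparatus lay in energy supply and calcium handling. Ckm, the muscle creatine kinase, was 9.65, 10.64 and 12.60 (lowest, median, highest) in muscle-rich and 4.86, 5.42 and 8.04 in muscle-poor tumours, a difference of means of 4.79, or 27.7-fold. The muscle energy list had a median difference of 1.28 over 22 tested genes, with Pygm, muscle glycogen phosphorylase, at 3.83, Ckmt2, the mitochondrial creatine kinase of muscle, at 3.76, and Eno3, the muscle enolase, at 3.66. Ampd1, the AMP deaminase of muscle, differed by 2.81 and Cox6a2, a muscle subunit of cytochrome oxidase, by 1.97. The smallest differences of the list included Gys1, glycogen synthase, at -0.14, Slc25a4, an ADP/ATP carrier, at 0.14 and Fbp2, the fructose bisphosphatase of muscle, at 0.19.

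The calcium and excitation list had a median difference of 1.07 over 22 tested genes. Atp2a1, the SERCA pump of fast fibres, was 9.48, 10.50 and 12.08 in muscle-rich and 4.18, 5.37 and 7.99 in muscle-poor tumours, a difference of means of 4.76. Pvalb, parvalbumin, a calcium buffer of fast fibres, differed by 4.72, Casq1, the fast calsequestrin, by 3.39 and Ryr1, the ryanodine receptor, by 3.30. For each of these 4 genes the groups did not overlap. Casq2, the calsequestrin of heart and slow fibres, differed by 0.18 and Cacnb1, a calcium channel subunit, by 0.02. The 3 other probe sets of Cacnb1 differed by -0.04 to 0.64.

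The fast myosins had large differences, 5.19 for Myh1 and 3.92 for Myh2 beside 6.07 for Myh4. Slow isoforms of the myosin light chains and troponins had smaller ones: 1.24 for Myl2, 1.03 for Tnnt1, 0.66 for Tnnc1, 0.44 for Tnni1 and 0.15 for Myl3. The 2 other probe sets of Myl3 differed by 0.22 and 0.79. Mybpc1, the myosin binding protein C of slow fibres, differed by 3.11, with values from 6.95 to 9.98 in muscle-rich and from 4.34 to 6.16 in muscle-poor tumours, and Myoz2, a Z-disc protein of slow fibres and heart, by 1.33. Myh7, the slow myosin, did not pass the filter on dim probe sets, with medians of 4.29 in muscle-rich and 3.69 in muscle-poor tumours and 7.11 in the highest muscle-rich tumour. These are differences within each probe set, and levels were not compared between genes.

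The list of muscle regulators had a median difference of 0.85 over 29 tested genes. Asb5, a muscle ankyrin-repeat protein, differed by 2.79, Fhl1, a LIM protein of the sarcomere, by 2.63 and Trim63, the ubiquitin ligase MuRF1 of muscle atrophy, by 2.22. Fbxo32, the other well-known atrophy ligase, differed by only 0.07, with means of 9.58 ± 0.25 in muscle-rich and 9.51 ± 0.45 in muscle-poor tumours. Dmd, dystrophin, differed by -0.08 and Ankrd1 by -0.51. Genes of satellite cells, of embryonic muscle and of the nerve-muscle junction did not share the pattern: 5 of 21 passed the filter, with a median difference of -0.07. Pax7, Myod1, Myog, Myh3 and Myh8 were below the filter, and their differences lay between -0.08 and 0.29.

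Outside the muscle lists, limma with Benjamini-Hochberg adjustment placed 981 genes higher in muscle-rich tumours (7.88% of 12446) and 947 lower (7.61%) at an adjusted p below 0.05. Large changes ran mostly one way: 118 of the higher genes but 8 of the lower ones changed more than 2-fold. Over all tested genes 41.2% had a positive difference. In 65 of the higher genes no muscle-poor tumour, and in 22 of the lower genes no muscle-rich tumour, reached the filter level of 5.42, so these passed the filter only through the tumours where they are high and their calls support nothing. The 31 lists of other cell types and processes that follow are read against those shares, by their counts and medians.

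**Figure D2:**
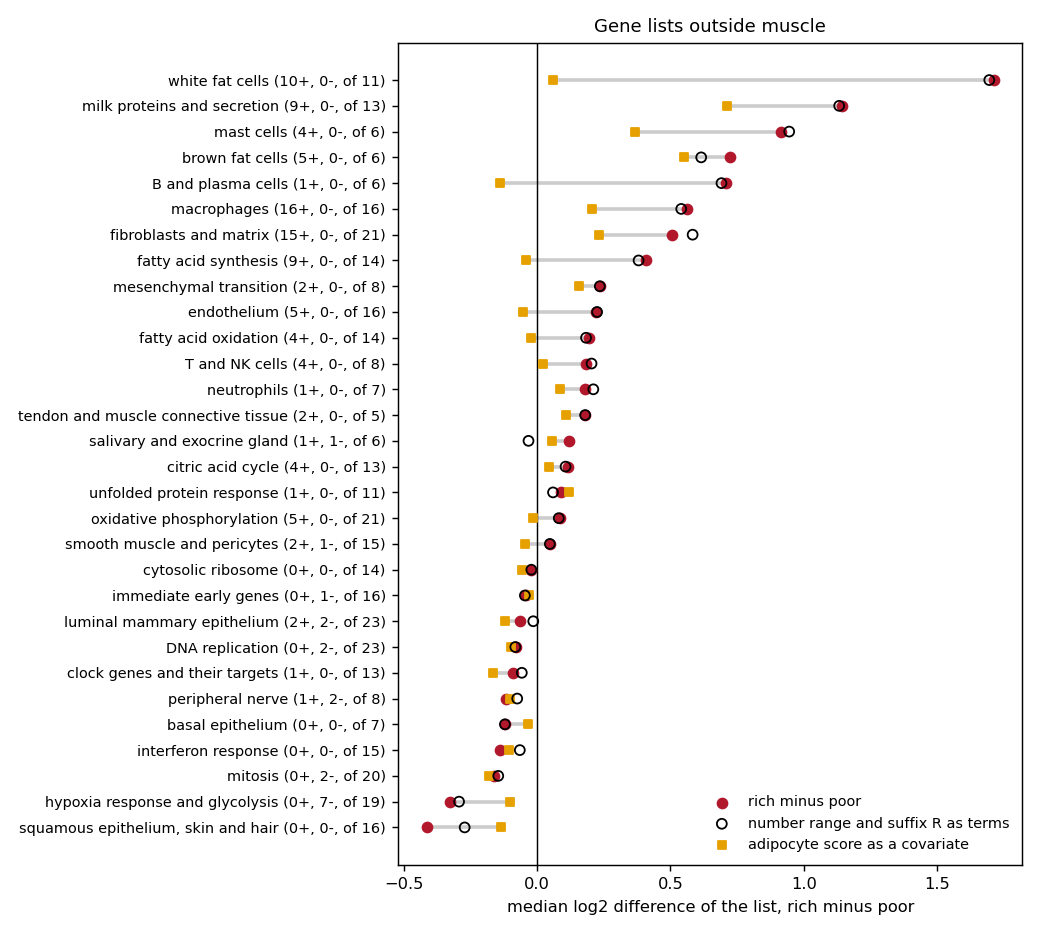
Median log2 difference, muscle-rich minus muscle-poor (horizontal axis), of the gene lists outside muscle with more than 1 tested gene; the numbers beside each name count its tested genes that passed higher (+) and lower (-). Filled circles are the comparison as reported, open circles add animal number range and suffix R as terms, and squares add the adipocyte score; the white fat list has the largest median, 1.71, and falls to 0.06 with its own score as a covariate.

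White fat genes were the list with the largest median difference, 1.71, and 10 of its 11 tested genes rose while 0 fell. Adipoq, the adipocyte hormone adiponectin, was 8.80, 10.30 and 11.61 (lowest, median, highest) in muscle-rich and 4.45, 7.45 and 10.95 in muscle-poor tumours. The groups overlapped, with 5 muscle-rich tumours above the highest muscle-poor one, and the difference was 2.68 ± 0.47 (SE), or 6.41-fold, at an adjusted p of 7.7e-05 (limma). Car3, a carbonic anhydrase abundant in fat and in slow muscle, rose by 2.37, Cd36, a fatty acid transporter, by 2.15, and Fabp4, the fatty acid binding protein of adipocytes, by 1.89. Pnpla2, a triglyceride lipase that many cells use, had a difference of 0.29 that did not pass. The mean level of the 11 genes ran from 8.17 to 10.37 in muscle-rich and from 5.98 to 9.54 in muscle-poor tumours. Plin1 and Cfd were not analysed here.

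Brown fat genes went the same way, with 5 of 6 tested members higher and a median of 0.72, though for 2 of the 5, Otop1 and Slc27a2, no muscle-poor tumour reached the filter level. Ucp1, the uncoupling protein by which brown fat makes heat, was 4.70, 7.36 and 10.96 in muscle-rich and 4.15, 4.77 and 8.12 in muscle-poor tumours. It rose by 2.23 ± 0.44 (SE; adjusted p = 0.00038, limma), and 6 muscle-rich tumours exceeded the highest muscle-poor one, while others lay at the muscle-poor level. Cidea, a lipid droplet protein, rose by 1.62. Of 14 genes of fatty acid synthesis 9 rose, with a median of 0.41, led by Dgat2, which makes triglyceride, at 1.23 and Acaca, acetyl-CoA carboxylase, at 0.59.

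Myh4 and white fat genes varied together within the muscle-rich tumours too. An adipocyte score, the mean z-score of 14 white fat genes, was -0.11, 0.71 and 2.08 (lowest, median, highest) in muscle-rich and -1.88, -0.70 and 1.37 in muscle-poor tumours; it was below 0 in 1 muscle-rich and 15 muscle-poor tumours. The 14 genes include Car3, abundant in slow muscle as well as in fat, and how much muscle RNA adds to the score was not tested. The relation of the score to Myh4 was computed in 8 sets of arrays, and adjusted p-values are over these 8. Among the 18 muscle-rich tumours Pearson's r was 0.82 (permutation p = 4.0e-05, adjusted p = 0.00032) and Spearman's rho 0.74 (permutation p = 8.0e-04, adjusted p = 0.0032), with r at 0.78 without the 2 tumours farthest from the median. In the 15 of them with a number below 4000 and no R, r was 0.84 (permutation p = 2.0e-04, adjusted p = 8.0e-04), rho 0.79 (permutation p = 8.0e-04, adjusted p = 0.0032) and r without 2 tumours 0.83.

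The relation was not detected among the other ranked tumours. Among the 20 middle tumours r was 0.34 (permutation p = 0.15, adjusted p = 0.21) and rho 0.32 (permutation p = 0.17, adjusted p = 0.28), with r at 0.60 without the 2 farthest. In the 12 middle tumours with a number below 4000 and no R, r was 0.34 (permutation p = 0.30, adjusted p = 0.35) and rho 0.22 (permutation p = 0.50, adjusted p = 0.57), with r at 0.38 without the 2 farthest. The muscle-poor tumours fell into separate clusters of Myh4, so no pooled r was taken. In the 8 with Myh4 at 6.38 or more, r was 0.05 (exact permutation p = 0.91, adjusted p = 0.91) and rho -0.12 (exact permutation p = 0.79, adjusted p = 0.79), with r at -0.25 without the 2 farthest. In the 10 at or below 4.31, r was 0.50 (permutation p = 0.16, adjusted p = 0.21) and rho 0.26 (permutation p = 0.47, adjusted p = 0.57), with r at 0.21 without the 2 farthest. The difference between these sets was not tested.

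**Figure D3:**
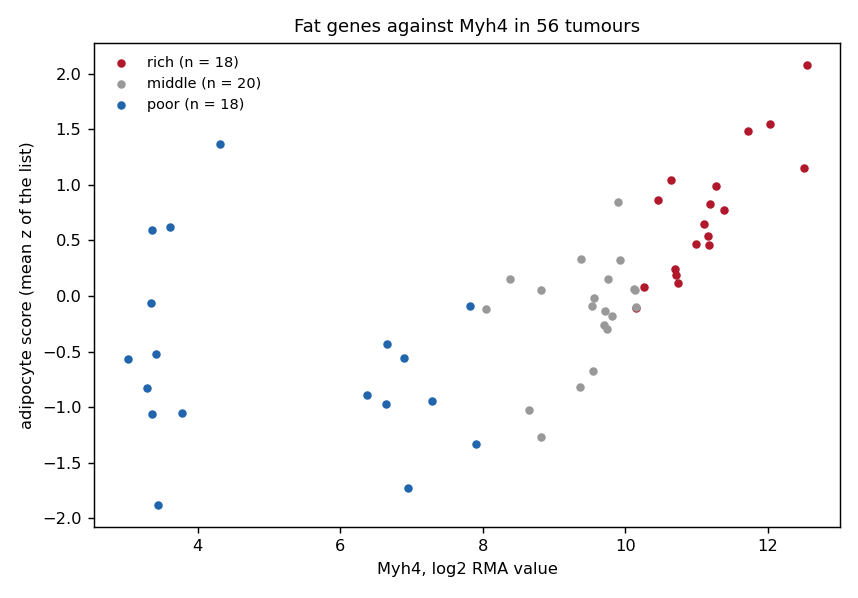
Adipocyte score (mean z-score of 14 white fat genes, vertical axis) against the deposited log2 value of Myh4 (horizontal axis) in the 56 ranked tumours, 1 point each. Among the 18 muscle-rich tumours the score rises with Myh4 (r = 0.82), and 3 muscle-poor tumours with Myh4 at or below 4.31 have a score above 0.

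The adipocyte score was then added to the comparison. With it as a covariate, 31 genes outside the muscle lists passed as higher (0.249%) and 5 as lower (0.0402%), of which 30 and 2 had passed without it. For Nexn, Synm, Ky, Smtnl1, Cap2, Clic5 and Calml4 among the 31, no muscle-poor tumour reached the filter level of 5.42. The same held for Olah and for 6 others named below. Passing supports nothing for any of these genes. The score and the grouping were correlated (r = 0.69 over the 36 tumours), which raised the standard errors by a median of 1.38 times, and the differences of the called genes shrank to a median of 57.1% of their size. Of the 981 higher genes 904 kept their sign and of the 947 lower genes 942. The score is built from fat genes, so their own loss under it says nothing further. Of the 31 lists outside muscle, milk had 1 passing gene beside the score and the other lists had 0. That gene was Olah, for which no muscle-poor tumour reached the filter level, so its passing supports nothing. Medians beside the score were 0.71 for milk, 0.55 for brown fat, -0.04 for fatty acid synthesis, -0.05 for endothelium, -0.14 for B and plasma cells, -0.02 for oxidative phosphorylation and -0.02 for fatty acid oxidation.

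The genes that passed beside the score were led by genes known from muscle that no list held. Synpo2, an actin-binding protein of the Z-disc whose promoter is printed above, was 5.27, 6.47 and 8.63 in muscle-rich and 3.61, 4.07 and 4.92 in muscle-poor tumours, with no overlap. The difference of means was 2.46, and 2.05 beside the score. On its 3 other probe sets Synpo2 differed by 0.20 to 0.90. Mypn, myopalladin of the Z-disc, differed by 2.21 and by 1.79 beside the score, but its other probe set differed by 0.50. Hspb6, a small heat shock protein abundant in muscle, rose by 2.12 and by 1.84 beside the score. Myhas, an antisense transcript of the fast myosin locus on chromosome 11, rose by 2.18 and by 1.99 beside it.

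Of the 25 genes in no list with the largest rises, from 1.495 to 2.54, 11 passed beside the score, and in 8 the groups did not overlap. The 25 were picked for large differences, and the share of all tested genes without overlap was not counted. The 8 are therefore a description. The 11 were Synpo2, Mypn, Myhas, Hspb6, Sh3bgr, Tmem182, Rtn2, Mlf1, Scn4b, Unc45b and Pdk4. In 6 of the 11, Synpo2, Mypn, Sh3bgr, Tmem182, Mlf1 and Scn4b, no muscle-poor tumour reached the filter level, so their values are a description and their passing supports nothing. The 2 other probe sets of Sh3bgr differed by -0.003 and 0.065. Unc45b, a chaperone that folds myosin, rose by 1.495. Pdk4, the kinase that shuts off pyruvate dehydrogenase when fat is burnt, was 5.87, 7.12 and 9.32 in muscle-rich and 3.49, 5.15 and 6.48 in muscle-poor tumours, and it rose by 2.54 ± 0.33 (SE; adjusted p = 4.2e-07, limma). Olah, which ends fatty acid chains early in the milk-making gland, also passed beside the score, at 1.32. It was singled out after its values were seen, and no muscle-poor tumour reached the filter level for it.

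The other 14 of the 25 did not pass beside the score. Among them were Pck1, a kinase of gluconeogenesis and of glycerol supply in fat, which rose by 2.47 and had a difference of 0.25 beside the score, and Cyp2e1, a cytochrome P450, at 2.06 and -0.04. Genes of extracellular matrix in this set were Efemp1, fibulin-3, at 1.90, and Dpt, dermatopontin, at 1.64. Immune genes in it were Retnla, a secreted marker of alternatively activated macrophages that fat also makes, at 2.06, the lectins Cd209b, Cd209g and Clec10a at 1.62, 1.57 and 1.54, and the immunoglobulin genes Igha and Igkv8-30 at 1.67 and 1.60. Ces1d, a carboxylesterase, and Cdo1, cysteine dioxygenase, differed by 1.58 and 1.56.

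**Figure D4:**
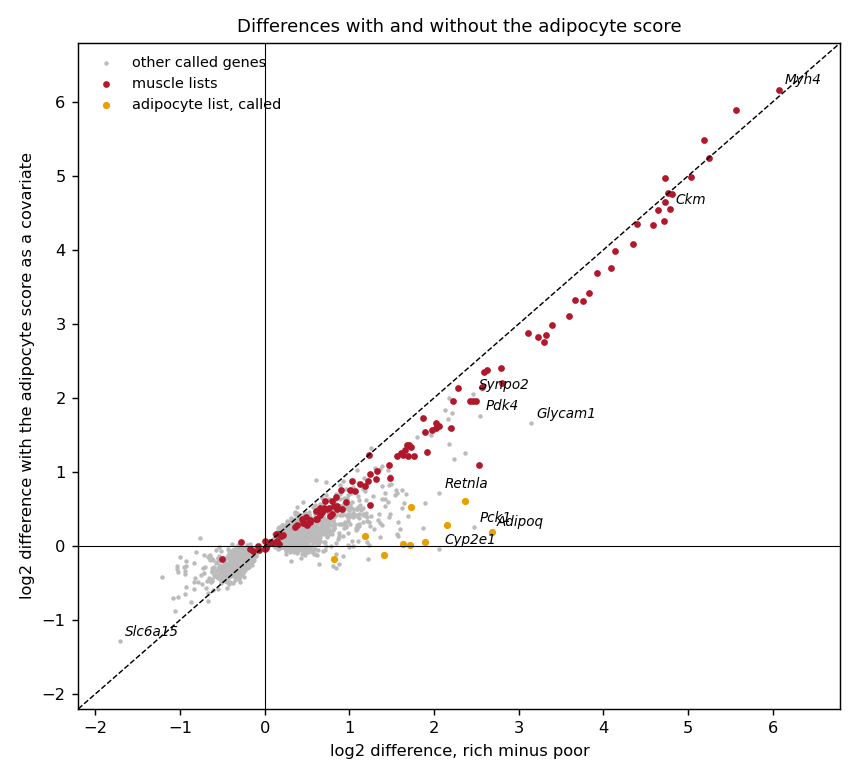
Log2 difference, muscle-rich minus muscle-poor, as reported (horizontal axis) and with the adipocyte score as a covariate (vertical axis), for genes of the muscle lists (red), called genes of the white fat list (orange) and other called genes (grey); the dashed line marks equal values. Myh4 (6.07 and 6.16) lies near the line, Cox8b (2.53 and 1.09) and Cox7a1 (1.25 and 0.56) lie well below it, and Adipoq, Pck1 and Cyp2e1 lie near 0 on the vertical axis.

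Macrophage genes all rose: 16 of 16 tested members passed, with a median difference of 0.56. Cd163, a scavenger receptor of tissue-resident macrophages, was 6.27, 6.65 and 7.35 in muscle-rich and 4.54, 5.62 and 6.46 in muscle-poor tumours. The groups overlapped little, with 15 muscle-rich tumours above the highest muscle-poor one, and the difference was 1.005 ± 0.13 (SE; adjusted p = 6.6e-07, limma). Mrc1, the mannose receptor of the same cells, rose by 0.997, and the general macrophage markers Csf1r, Adgre1 and Cd68 rose by 0.61, 0.57 and 0.40. The mean level of the 16 genes ran from 8.86 to 9.94 in muscle-rich and from 7.86 to 9.40 in muscle-poor tumours. Beside the adipocyte score 0 of the 16 passed, at a median of 0.21, and Cd163 had a difference of 0.55 (adjusted p = 0.073, limma).

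Mast cell genes rose in 4 of 6 tested members, with a median of 0.92. Cpa3, the carboxypeptidase of mast cell granules, was 5.56, 6.99 and 7.95 in muscle-rich and 4.07, 5.41 and 6.16 in muscle-poor tumours. It rose by 1.55 ± 0.21 (SE; adjusted p = 9.5e-07, limma), with 14 muscle-rich tumours above all muscle-poor ones. The chymases Cma1 and Mcpt4 rose by 1.13 and 1.03 and the tryptase Tpsb2 by 0.81, though no muscle-poor tumour reached the filter level for Mcpt4 or Tpsb2. Of 8 T and NK cell genes 4 rose, with a list median of 0.18, Cd3g at 0.78 and Cd3e at 0.19. All 6 B and plasma cell genes had a positive difference, with a median of 0.71, and 1 passed, Jchain, which joins IgA and IgM chains in plasma cells, at 1.69. Differences between these lists were not tested. Of 7 neutrophil genes Csf3r rose by 0.22, while S100a8 had a difference of -0.22 that did not pass. Beside the score none of these lists had a passing gene.

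Connective tissue genes rose in 15 of 21 tested members, with a median of 0.51. The small proteoglycans Lum and Dcn, which space collagen fibrils, rose by 1.04 and 1.01, Pcolce, which aids procollagen processing, by 0.91 and Col6a2, a chain of the collagen around muscle fibres and fat cells, by 0.73. Col3a1 and Pdgfra, defining fibroblast markers, rose by 0.61 and 0.51, whereas Col1a1 had a difference of 0.25 that did not pass. Of 5 tendon and muscle connective tissue genes, Thbs4, a thrombospondin of tendon and muscle, rose by 1.48 and Cilp by 1.21. Dpt, dermatopontin of the dermis and fat septa, was 8.35, 9.23 and 9.95 in muscle-rich and 4.94, 7.64 and 8.94 in muscle-poor tumours, with 13 muscle-rich tumours above all muscle-poor ones. Beside the score 0 of the 21 connective tissue genes passed.

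Vessel and nerve genes showed smaller shifts. Of 16 endothelial genes 5 rose, with a median of 0.22, among them Vwf, von Willebrand factor, by 0.75 and Tek, the angiopoietin receptor, by 0.71, while Pecam1 (0.31) and Cdh5 (0.09) did not pass. Of 15 smooth muscle and pericyte genes, Pdgfrb rose by 0.42, Abcc9 rose by 0.36 and Notch3 fell by 0.34. Of 8 nerve genes, Pmp22, a myelin protein, rose by 0.55 and Ncmap fell by 0.59. Mbp fell by 0.17 on its brightest probe set, but 6 of its other 7 probe sets went the opposite way.

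The counts of luminal and basal marker genes that passed are read against 7.88% higher and 7.61% lower among all tested genes. They mark no result about these lists. Of 23 luminal genes 2 rose and 2 fell, with a median of -0.06, and their mean level ran from 9.72 to 10.07 in muscle-rich and from 9.18 to 10.13 in muscle-poor tumours. Krt8 and Epcam, defining luminal markers, had differences of -0.06 and -0.03 that did not pass. Esr1, the oestrogen receptor, rose by 0.35, while Krt7 fell by 0.71 and Prom1 fell by 0.39. Elf5 rose by 0.24 on its brightest probe set, and its only other probe set went the opposite way. None of 7 basal genes passed, with Krt14 at -0.17 and Krt5 at -0.04, and none of 16 genes of squamous epithelium, skin and hair passed, with a median of -0.41. Salivary gland genes had 1 member that rose, Amy1, an amylase, by 1.87, and 1 that fell, Prom2, by 0.56, of 6.

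Milk genes rose in 9 of 13 members, with a median of 1.14, though for 1 of the 9, Olah, no muscle-poor tumour reached the filter level. Glycam1, a mucin of milk fat globules, was 8.18, 10.61 and 12.91 in muscle-rich and 3.03, 7.87 and 10.77 in muscle-poor tumours, a rise of 3.14 ± 0.58 (SE; adjusted p = 1.6e-04, limma). Csn1s2a, a casein, was 10.42, 13.17 and 13.67 in muscle-rich and 7.29, 10.60 and 13.27 in muscle-poor tumours, a rise of 2.36 ± 0.46 (SE; adjusted p = 3.9e-04, limma). For both genes 8 muscle-rich tumours exceeded all muscle-poor ones and the rest overlapped. The caseins Csn2 and Csn1s1 rose by 1.42 and 1.38. Csn3 and Lalba had differences of 0.19 and 0.48 that did not pass.

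**Figure D5:**
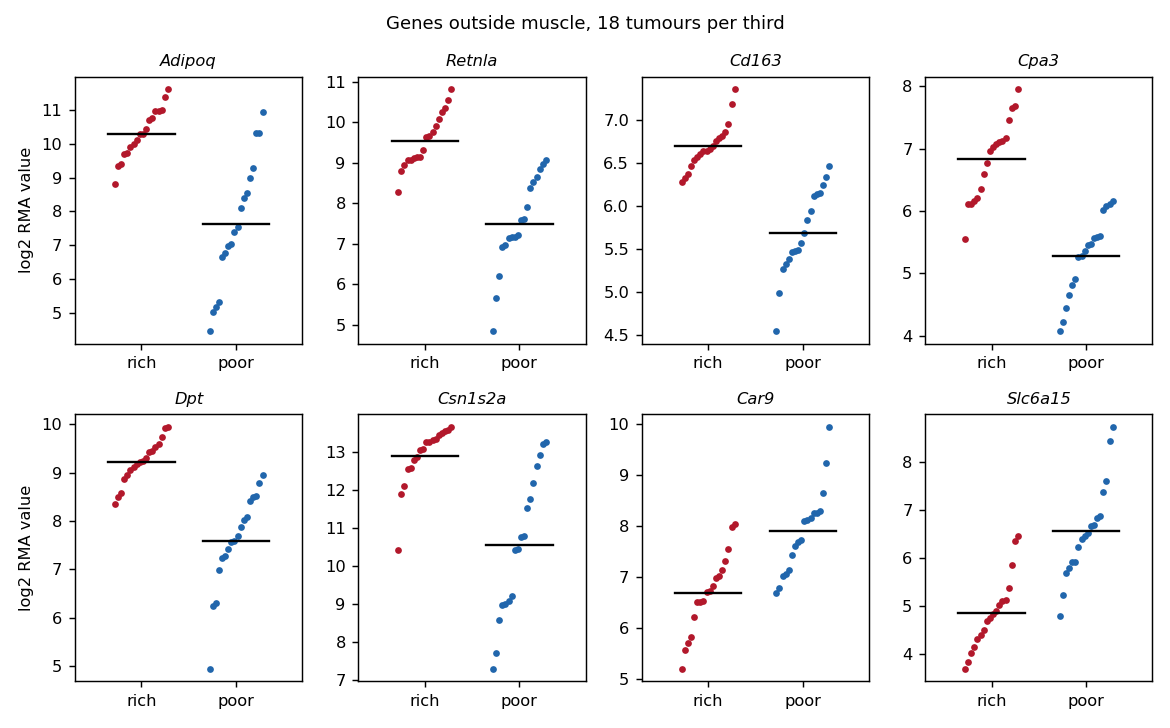
Deposited log2 values (vertical axes) of 8 genes outside the muscle lists in 18 muscle-rich and 18 muscle-poor tumours; each point is 1 tumour, ordered by value within its group, and the line is the group mean. Adipoq, Retnla, Cd163, Cpa3, Dpt and Csn1s2a were higher and Car9 and Slc6a15 lower in muscle-rich tumours, with overlap in every panel.

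Genes lower in muscle-rich tumours changed less. Hypoxia and glycolysis genes fell in 7 of 19 tested members and rose in 0, with a median of -0.33. Car9, a carbonic anhydrase induced by low oxygen, was 5.20, 6.72 and 8.03 in muscle-rich and 6.70, 7.91 and 9.95 in muscle-poor tumours. It fell by 1.21 on the log2 scale (SE 0.26; adjusted p = 0.0012, limma), with 9 muscle-poor tumours above all muscle-rich ones. Ankrd37 fell by 0.96, Egln3, a prolyl hydroxylase that senses oxygen, by 0.94, and Vegfa, the vessel growth factor, by 0.64. Beside the adipocyte score Car9 had a difference of -0.42 and 0 of the 19 passed.

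Of the 25 genes in no list with the largest falls, Slc6a15, a neutral amino acid transporter, changed most. It was 3.70, 4.79 and 6.47 in muscle-rich and 4.81, 6.50 and 8.74 in muscle-poor tumours, and it fell by 1.71 (SE 0.29; adjusted p = 5.2e-05, limma), with 10 muscle-poor tumours above all muscle-rich ones. Falls were also found for Krt23, a keratin, at -1.09, S100a14 at -1.06, Plod2, a lysyl hydroxylase of collagen, at -1.03, and Pgf, placental growth factor, at -0.93. Tnnt2, the troponin T of heart and embryonic muscle, fell by 1.02, opposite to the skeletal troponins, with medians of 4.37 in muscle-rich and 5.06 in muscle-poor tumours, but it did not pass with animal number range and suffix R as terms (-0.70, adjusted p = 0.15, limma). The guidance receptor Robo1 fell by 0.75, though no muscle-rich tumour reached the filter level for it, and Igfbp3, which binds insulin-like growth factors, by 0.95. None of the 25 passed beside the score.

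The counts of proliferation genes that fell were near the 7.61% of all tested genes that fell, so they mark no result about these genes. Of 20 mitosis genes 2 fell, Nusap1 by 0.28 and Cenpf by 0.26. The median of the list was -0.16 with 0 of 20 positive, against 0.04 with 14 of 20 positive in the tumours numbered below 4000 without R alone. Of 23 DNA replication genes 2 fell, Rfc3 by 0.21 and Rfc5 by 0.20, with a median of -0.08 and 5 of 23 positive, against 0.04 and 16 of 23 in those tumours alone. None of 15 interferon response genes and none of 14 cytosolic ribosome genes passed. Of the mitochondrial lists, 5 of 21 oxidative phosphorylation genes, 4 of 13 citric acid cycle genes and 4 of 14 fatty acid oxidation genes rose, with list medians of 0.08, 0.12 and 0.19. Positive differences were found in 18, 12 and 14 of their genes, or all of the fatty acid oxidation list, and none of the 3 lists had a passing gene beside the score. The largest of these were Hadhb at 0.30, Acadm at 0.28 and Cs, citrate synthase, at 0.24, each far smaller than the muscle isoform Cox6a2. A different probe set of Hadhb went the opposite way.

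Among the remaining lists, Twist1 and Zeb2 rose by 0.38 and 0.26 of 8 mesenchymal transition genes (no muscle-poor tumour reached the filter level for Twist1), Creld2 by 0.31 of 11 unfolded protein response genes, and Arntl by 0.32 of 13 clock genes. Ier3 fell by 0.38 of 16 immediate early genes. Alas2, the single erythroid gene tested, had a difference of 0.34 that did not pass.

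The groups were uneven in the labels, so the comparison was repeated with animal number range and suffix R as terms. It then gave 862 higher (6.93%) and 519 lower genes (4.17%), of which 765 and 357 had passed before. All 25 of the largest rises in no list passed, and 14 of the 25 largest falls. These genes were picked for their changes in the same tumours, so their passing here and in the subset below is a description. For 6 of the rises no muscle-poor tumour, and for 3 of the falls no muscle-rich tumour, reached the filter level. Within the 15 muscle-rich and 8 muscle-poor tumours numbered below 4000 without R, the comparison gave 509 higher (4.09%) and 195 lower genes (1.57%), of which 469 and 127 had passed before. Of the 25 largest rises in no list 23 passed there, and of the 25 largest falls 4, which were Slc6a15, Kcne3, C130071C03Rik and Pgf. Car9 did not pass there, with a difference of -0.87 (adjusted p = 0.12, limma), whereas Adipoq (3.06), Cd163 (1.05) and Cpa3 (1.77) did. By list, 9 of 11 white fat, 4 of 6 mast cell, 9 of 16 macrophage, 6 of 21 connective tissue, 4 of 13 milk and 2 of 14 fatty acid synthesis genes rose there, and 0 of 19 hypoxia and glycolysis genes fell, against 3 of 19 with the terms in all tumours. No gene's difference between the number ranges passed (0 by limma, 671 at an unadjusted p below 0.05), but the upper range held 1 muscle-rich tumour.

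Control measures of the arrays were similar in both groups. The Actb 3′ minus 5′ control difference, which grows as RNA degrades, was 0.89 ± 0.23 in muscle-rich and 0.81 ± 0.18 in muscle-poor tumours, and the 18S mean was 5.90 ± 0.30 and 5.78 ± 0.40 in the same groups. Some arrays stood apart from the rest, as 1 side of the same low and high split, in many probe sets. Such splits gave a set of 9 arrays (44 probe sets) and a set of 8 (121 probe sets). The other ranked arrays formed the remainder. The set of 9 held every ranked array with suffix R and animal 4967. All arrays in the set of 8 had numbers above 4000. The sets thus overlap with suffix and number range, though the remainder also held numbers above 4000. The remainder, the set of 9 and the set of 8 held 15, 2 and 1 muscle-rich and 9, 4 and 5 muscle-poor tumours. The groups were thus uneven in these sets. With the sets as a block, 879 genes were higher (7.06%) and 729 lower (5.86%). Of these, 782 and 495 were among the 981 higher and 947 lower genes called without the block.

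The 12 arrays left out for their 18S values gave a check in tumours that the ranking did not use. Other measures of these arrays differed too. The Actb 3′ minus 5′ difference averaged 1.23 on them, against 0.89 in muscle-rich and 0.81 in muscle-poor tumours. The SD of all values on an array averaged 2.04, against 2.33 and 2.34 in the same groups. Whether this bears on which genes passed was not tested. Myh4 on the 12 arrays ran from 3.33 to 9.82, and each gene was fitted on it. The slope passed as positive for 134 genes outside the muscle lists (1.08%) and as negative for 27 (0.217%). Of the 981 genes higher in muscle-rich tumours 89.4% had a positive slope, against 53.7% of all tested genes, and 96 passed. Of the 947 lower genes 60.9% had a negative slope, against 46.3% of all, and 8 passed. Myhas, Hspb6, Pdk4 and Dpt passed with slopes of 0.67, 0.36, 0.60 and 0.27 log2 units per unit of Myh4, and 14 of the 21 connective tissue genes passed. The slope of Synpo2 was 0.34, a description only, as no muscle-poor tumour reached the filter level for it. None of the macrophage, milk or hypoxia genes passed there, and 2 of the 11 white fat genes did.

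However, 2 of the 12 arrays carry an animal number that a muscle-rich array also carries. Without them 10 arrays remained, and 28 positive and 11 negative slopes passed, 21 and 2 of them among the called genes. The shares with the same sign were then 77.5% of the higher genes, against 51.1% of all, and 52.2% of the lower genes, against 48.9% of all. The adipocyte score went with Myh4 in the 12 arrays (r = 0.66, permutation p = 0.011, adjusted p = 0.029; rho = 0.73, permutation p = 0.0085, adjusted p = 0.023; r = 0.73 without the 2 farthest). In the 10 arrays r was 0.56 (permutation p = 0.061, adjusted p = 0.12) and rho 0.60 (permutation p = 0.074, adjusted p = 0.15), with r at 0.67 without the 2 farthest.

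In the 20 middle tumours, whose Myh4 ran from 8.04 to 10.15, 2 positive (0.0161%) and 1 negative slope (0.00803%) passed. Of the higher genes 90.3% had a positive slope, against 48.6% of all, and of the lower genes 78.6% had a negative one, against 51.4% of all. Genes are not independent of one another, so these shares are a description across genes.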

How the data were processed

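The labels place all 68 arrays in 1 group. Per the labels' protocols, total RNA was extracted and labelled with biotin, and the series text names Affymetrix chips. The authors deposited RMA values, per the submitters' processing notes, without version or log base, and the deposited values, from 1.68 to 14.57, were read as log2. No source used here says whether the 68 arrays were normalised in 1 run. Genes were named by the platform annotation, updated through RefSeq (GRCm38.p6), where 34958 probe sets had 1 gene, 932 several and 9211 were not listed. Of 18194 genes, 12562 passed the filter.

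A gene with several probe sets was read from the brightest, Myh4 from the ranking probe set. R 4.3.3 with limma 3.58.1 (lmFit, eBayes) tested muscle-rich minus muscle-poor with Benjamini-Hochberg adjustment over all tested genes at 0.05, and was tested on simulated data. Muscle-list genes stayed in the fit and in the adjustment, so their p-values enter the adjusted p-values of the other genes, but no test of them is reported. Members and lists were chosen with earlier results of these data known. Named genes are the markers, the 8 largest differences and those under 1 in each muscle list, the 4 largest changes each way in each other list (or the 2 brightest where fewer than 2 passed), and the 25 largest each way in no list. Defining cell type markers are named besides. Any other gene named was chosen after its values were seen. Each compared array has an animal number of its own, so p-values measure the spread between animals. The number of arrays limits precision. Permutation tests were two-sided.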

Additional observations from a re-analysis of the deposited data

How the results depend on the processing

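The counts were 981 higher and 947 lower genes. They moved beyond 1.5 times with the adipocyte score as a covariate (31 and 5), in the tumours numbered below 4000 without R alone (509 and 195), as a slope on Myh4 over 56 arrays (608 and 324) and, an alternative chosen after seeing the data, with muscle-poor arrays limited to Myh4 below 5 (518 and 309). Number range and suffix R as terms moved the lower count alone, to 519. The cause was not tested, though some of these fits use fewer samples. The slopes in the 12 arrays left out fell to 39 passing genes, against 161, without the 2 shared animal numbers, also chosen after seeing the data. Control 3′ minus 5′ differences, array sets, ranking by Acta1 or Tnnc2, the top and bottom 25%, another probe set, both filters and both rescalings kept both counts within 1.5 times. Centring arrays on their median gave 890 higher and 1239 lower, and quantile normalisation again 954 and 1128.

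Among named genes, 14 results turned their sign. With the adipocyte score these were Scd1 (-0.11), Cd3g (-0.0054), Cd3d (-0.056), Nkg7 (-0.0033), Sdha (-0.012), Etfb (-0.027), Cpt2 (-0.020), Cyp2e1 (-0.043), Ier3 (0.031) and Edil3 (0.11). With the probe set of largest SD they were Elf5 (-0.054), Hadhb (-0.0058) and Mbp (1.16). In the tumours below 4000 without R it was Col2a1 (0.074). List medians turned their sign in 17 cases. With the adipocyte score these were fatty acid synthesis (-0.044), B and plasma cells (-0.14), endothelium (-0.054), smooth muscle (-0.044), oxidative phosphorylation (-0.016) and fatty acid oxidation (-0.024). In the tumours below 4000 without R they were mitosis (0.044) and replication (0.035). The salivary median turned under 6 settings (-0.30 to -0.013), the interferon median ranked by Acta1 (0.028) and as a slope (0.048), and smooth muscle when quantile normalised again (-0.0059). The other named results kept direction and side of the threshold in 1698 cases, lost the call in 423 and gained it in 1. No paired analysis was possible because the labels hold 1 group and the animal numbers only name samples.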

Other observations

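Fat and muscle separated in 3 muscle-poor tumours, chosen after their values were seen. Animals 3004, 3042 and 4975 had Myh4 at 4.31, 3.61 and 3.36 but adipocyte scores of 1.37, 0.62 and 0.59, above the -0.70 of the muscle-poor median. Their Adipoq values, 10.95, 10.33 and 10.33, were near the muscle-rich median of 10.30. Cd163 in these tumours was 5.93, 6.33 and 6.24, against a muscle-rich median of 6.65 and a muscle-poor median of 5.62. Cpa3 was 6.16, 6.12 and 6.08, against medians of 6.99 in muscle-rich and 5.41 in muscle-poor tumours. Dpt was 8.94, 8.79 and 8.49 and Retnla 9.06, 8.53 and 8.97, all above the muscle-poor medians of 7.64 and 7.41. Glycam1 was 9.44, 8.97 and 9.74 and Car3 12.50, 11.92 and 12.61, above the muscle-poor medians of 7.87 and 10.20. Csn1s2a was 11.52, 12.92 and 9.004, the last below the muscle-poor median of 10.60. Whether fat goes with these genes in the absence of muscle was not tested, as 3 tumours picked by their values form no group.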
